A study of Mus musculus with 4 samples.

Results

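The genes described here are the subunits of the oxidative phosphorylation system that the mouse gene table lists, chosen by symbol alone. They are the mitochondrially encoded genes of complexes I, III, IV and V (mt-Nd, mt-Cytb, mt-Co and mt-Atp) and the nuclear genes whose symbols start with Nduf, Uqcr, Cox4 to Cox8 or Atp5. The rule takes 103 of 32285 genes, 13 mitochondrially encoded and 90 nuclear-encoded. Of the nuclear genes, 37 fall by symbol in complex I, and 8 code for assembly factors of complex I that share its prefix. Complex III has 8, complex IV 18, the Ndufa4 family (placed with complex IV) 2 and complex V 17. Ndufb1-ps, counted with complex I, is annotated as a long non-coding RNA. Only Cox7b2 and Cox8c, isoforms known from testis, had under 20 unique molecular identifiers (UMIs, counted transcript copies) over all barcodes kept.

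Oxidative phosphorylation passes electrons from NADH and succinate along complexes I to IV of the inner mitochondrial membrane to oxygen, and ATP synthase (complex V) uses the proton gradient this builds to make ATP. Its subunits come from different genomes. A few core subunits are transcribed from the circular mitochondrial DNA as long precursors, nearly all from the same strand, and cut into single messengers. The rest are transcribed in the nucleus, translated in the cytosol and imported. Muscle fibres and the smooth muscle and pericytes (mural cells) around vessels use particular isoforms of several complex IV subunits.

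The cells came from hindlimb muscle of male C57Bl/6J mice that were 5 weeks old when irradiated. A limb received 3 X-ray fractions of 8.2 Gy each (IR), and the other limb of the same animals was shielded and served as control (CON), so the controls came from animals whose other limb had been irradiated. Limbs were taken 24 hours after the final fraction or 56 days after irradiation, cells from 3 limbs were pooled per group, and live, nucleated single cells were sorted, captured with 10x 3' chemistry and sequenced. Each of the 4 groups is 1 library, so no difference between groups could be tested, and every interval below is a 95% interval for counting error only.

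Values in sets of 4 are given with the earlier pair first and the control ahead of its irradiated partner. The libraries held 6339993, 10121978, 8842963 and 4715202 UMIs, and 1336, 2539, 1700 and 969 barcodes were kept after requiring 200 genes, 500 UMIs and at most 20% mitochondrial UMIs. The limit acted on the genes described here, since each mitochondrially encoded gene of the table is a member. It removed 2.84%, 2.98%, 3.85% and 2.61% of the barcodes that passed the depth limits. Pairs of libraries shared 10 barcode sequences in all. Cells were assigned to classes by marker genes (at least 3 markers of a class and few of any other), and a class is described at a time where both libraries held at least 25 cells, which gave 9 classes at 24 hours and 8 at 56 days. Endothelial-like cells were the most numerous, with 468, 1523, 779 and 476 cells. The other classes are small: mural-like cells (45, 146, 58 and 69), fibro-adipogenic progenitor-like cells (FAP-like, 39, 55, 88 and 36), satellite-like cells (34, 72, 76 and 29), Schwann-like cells (52, 129, 62 and 53) and B-like cells (188, 102, 59 and 43). Barcodes with at least 10% of their UMIs in myofibre markers are called myofibre-rich (91, 166, 44 and 51). Apart from the endothelial-like and Schwann-like cells, every class described had under 50 cells in at least 1 library.

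Of the 90 nuclear-encoded members, 72 matched a gene start in RefSeq (GRCm38.p6). In the 300 bases from 250 before to 50 after the start, the ETS motif CCGGAAG (bound by GABP) was found in 22.2% of them, against 9.12% of 27025 promoters of the same length, on either strand. The palindromic motif of nuclear respiratory factor 1 (NRF1) was found in 22.2% against 4.78%, and the YY1 motif ATGGCGGC in 9.72% against 2.38%. The box CCAAT was found in 44.4% against 37.9%, and CAGCTG, an E-box used by myogenic factors, in 8.33% against 16.1%. The p53 half-site was found in 5.56% against 8.37%. The 4 matched members with restricted expression (Cox6b2, Cox7a1, Cox8b and Cox7b2) held no match to the ETS, NRF1 or YY1 motif in this window. A match is a description of letters and not a shown binding site.

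The following sequences are shown because the results turn on these genes: Cox6b2, the member with the largest difference between irradiated and control cells, beside its common partner Cox6b1; Cox8b and Cox7a1, muscle isoforms, beside their partners Cox8a and Cox7a2; and Cox6a1. Each is the run of 100 bases nearest to the RefSeq start that holds no GENCODE exon base, on the gene's strand, with NRF1, ETS, YY1, CCAAT and CAGCTG matches on either strand in capitals.
Cox6b2 (GRCm38.p6, chr7:4753095-4753194, minus strand): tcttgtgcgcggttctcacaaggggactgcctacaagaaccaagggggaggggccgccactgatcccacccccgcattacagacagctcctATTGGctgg
Cox6b1 (chr7:30626152-30626251, minus strand): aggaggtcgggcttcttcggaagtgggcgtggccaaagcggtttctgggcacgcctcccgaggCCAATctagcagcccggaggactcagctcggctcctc
Cox8b (chr7:140900447-140900546, minus strand): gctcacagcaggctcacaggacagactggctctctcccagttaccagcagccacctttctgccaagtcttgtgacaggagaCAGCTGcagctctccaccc
Cox8a (chr19:7217617-7217716, minus strand): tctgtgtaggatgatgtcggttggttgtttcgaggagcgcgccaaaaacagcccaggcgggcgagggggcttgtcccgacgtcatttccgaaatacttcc
Cox7a1 (chr7:30184044-30184143, plus strand): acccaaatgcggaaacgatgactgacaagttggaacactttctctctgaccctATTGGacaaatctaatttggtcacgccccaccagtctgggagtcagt
Cox7a2 (chr9:79759879-79759978, minus strand): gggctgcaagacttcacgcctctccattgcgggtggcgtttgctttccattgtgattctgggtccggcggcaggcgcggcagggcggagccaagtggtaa
Cox6a1 (chr5:115348982-115349081, minus strand): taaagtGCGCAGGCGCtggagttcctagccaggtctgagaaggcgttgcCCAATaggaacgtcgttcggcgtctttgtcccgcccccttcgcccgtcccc

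Mitochondrially encoded and nuclear-encoded members differed between IR and CON in opposite directions, and both differences changed direction between the times. In endothelial-like cells the mitochondrially encoded members made up 3.36%, 4.09%, 4.02% and 2.98% of UMIs. They were 1.22-fold (1.21 to 1.23) as high in IR as in CON at 24 hours and 0.741-fold (0.733 to 0.748) at 56 days. The nuclear-encoded members made up 2.25%, 2.08%, 1.85% and 2.28% of UMIs, and stood at 0.927-fold (0.916 to 0.937) in IR at 24 hours and 1.23-fold (1.22 to 1.25) at 56 days. The mitochondrially encoded UMIs per nuclear-encoded UMI were 1.49, 1.96, 2.18 and 1.31, which is a ratio of IR to CON of 1.31 at 24 hours and 0.600 at 56 days. IR at 24 hours and CON at 56 days were the libraries high in mitochondrial transcripts, and CON at 24 hours and IR at 56 days the ones low in them.

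The 2 control libraries also differed from each other. In endothelial-like cells the mitochondrially encoded share was 1.20-fold (1.18 to 1.21) as high in CON at 56 days as in CON at 24 hours, and the nuclear-encoded share 0.821-fold (0.810 to 0.832). The ratio of the 2 kinds was 1.46-fold as high in the later control. The same comparison of controls gave 1.49 in B-like, 1.60 in FAP-like, 1.64 in Schwann-like, 1.80 in satellite-like and 1.89 in mural-like cells. These comparisons share control libraries with those of IR over CON. With 1 library per group, an effect of irradiation and of the library cannot be told apart in IR over CON at a time. Between the times, age at collection also cannot be told apart from the library.

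At 24 hours mitochondrially encoded members were higher in IR, with an interval above 1, in 8 of 9 classes (ratios from 1.08 in neutrophil-like cells, whose interval held 1, to 1.39 in myofibre-rich barcodes). Nuclear-encoded members were lower in 7 of 9, from 0.810 (0.788 to 0.832) in mural-like cells, and higher in the myofibre-rich barcodes alone (1.13, 1.11 to 1.15). The number of mitochondrially encoded UMIs per nuclear-encoded UMI was higher in IR in 9 of 9 classes, by 1.20-fold to 1.61-fold. The mitochondrially encoded values of the myofibre-rich barcodes at 24 hours rest on 1 barcode, which held 80100 of the 204948 UMIs of the class in the control. Without the deepest barcode of each class and library, their mitochondrially encoded ratio was 0.877 (0.815 to 0.943) and their ratio of the 2 kinds 0.789 (0.731 to 0.850), so the ratio of the 2 kinds was then higher in IR in 8 of 9 classes. The nuclear-encoded ratio of neutrophil-like cells was then 1.00 (0.916 to 1.09), beside 0.900 (0.827 to 0.977) with all cells, and the mitochondrially encoded one 1.28 (1.14 to 1.43). At 56 days, with all cells, the ratio of the 2 kinds was lower in IR in 7 of 8 classes by the interval, down to 0.479-fold (0.463 to 0.495) in mural-like cells. The other one, the myofibre-rich barcodes, stood at 0.996 (0.897 to 1.11) as a sum, while the median mitochondrial share per barcode was 0.860% in CON and 0.332% in IR. Mitochondrially encoded members were lower in 7 of 8 classes at 56 days (lowest 0.579 in mural-like cells), and nuclear-encoded members higher in 6 of 8, up to 1.24 (1.20 to 1.29) in FAP-like cells. The nuclear-encoded share in monocyte- or macrophage-like cells was 0.987 (0.955 to 1.02), an interval that holds 1. Without the deepest barcodes it was 0.956 (0.924 to 0.989), and that of B-like cells, 1.15 with all cells, was 1.05 (0.998 to 1.11). The control at 56 days had the highest ratio of the 2 kinds, followed by IR at 24 hours, the control at 24 hours and then IR at 56 days, in endothelial-like, mural-like, FAP-like, Schwann-like and B-like cells. In satellite-like cells the last 2 were swapped.

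**Figure D1:**
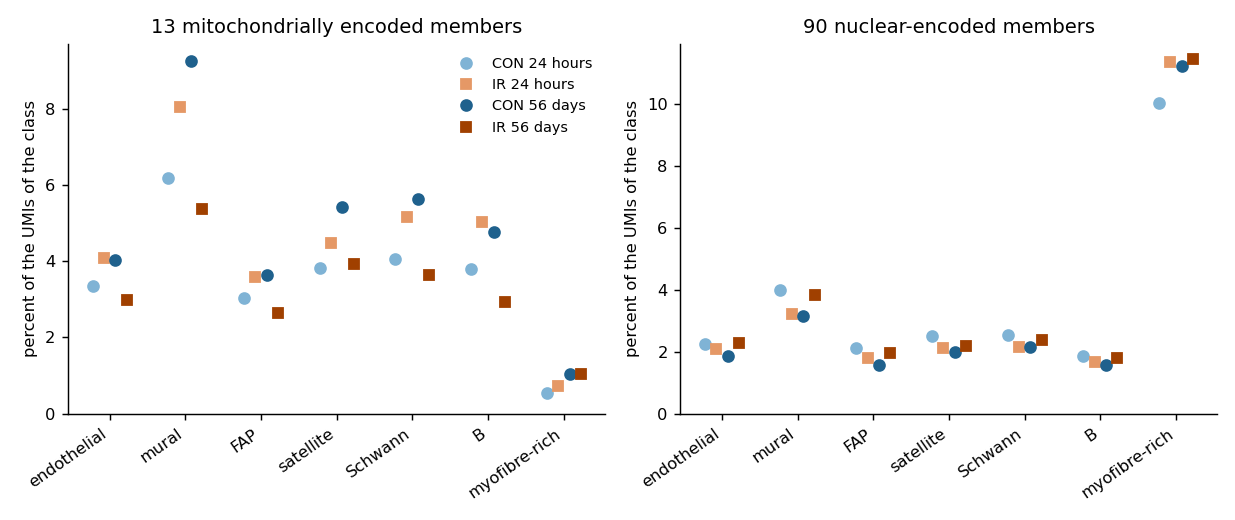
Percent of the UMIs of each class held by the 13 mitochondrially encoded members (left) and the 90 nuclear-encoded members (right), a point per library, for the classes with at least 25 cells in all 4 libraries. Squares are irradiated and circles control. In endothelial-like cells the mitochondrial share was 3.36%, 4.09%, 4.02% and 2.98%, and the myofibre-rich barcodes had the lowest mitochondrial and the highest nuclear-encoded share.

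Other measures moved with this order of libraries in some classes. In endothelial-like cells cytosolic ribosomal protein genes, 82 in the list, held 11.1%, 9.34%, 8.84% and 10.6% of UMIs, so they were low in the libraries high in mitochondrial transcripts. Malat1, an RNA retained in the nucleus, held 1.13%, 1.96%, 1.38% and 1.24%. In mural-like cells the ribosomal protein share was 7.36%, 5.73%, 6.70% and 9.19%. The same libraries were the lower ones in FAP-like, Schwann-like and B-like cells. In satellite-like cells the share was 25.8%, 18.0%, 25.4% and 24.3%, so CON at 56 days was not low. The median depth of endothelial-like cells was 3463.5, 3086, 2969 and 3541.5 UMIs, lower in the same 2 libraries. Other classes did not share this order of depth. FAP-like cells were deeper in those libraries (4353, 6955, 6908.5 and 4686.5), and satellite-like cells had 7801, 4731, 4606 and 3530. The part of depth and RNA quality in the result was not tested. With each cell thinned to 1000 UMIs the endothelial-like ratios were 1.19 at 24 hours and 0.767 at 56 days for mitochondrially encoded members, and 0.923 and 1.20 for nuclear-encoded ones. Shares are of all UMIs of a class, so a higher mitochondrial share lowers the rest. With UMIs of genes that are not mitochondrially encoded as the denominator, the nuclear-encoded share of endothelial-like cells was 2.33%, 2.17%, 1.92% and 2.35%, and its ratios were 0.934 and 1.22.

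**Figure D2:**
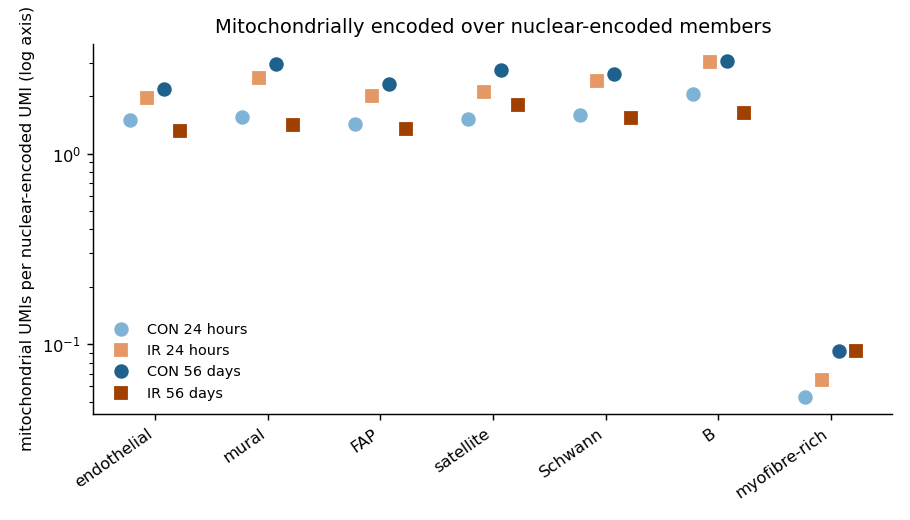
Mitochondrially encoded UMIs per nuclear-encoded UMI in each class and library, on a log axis, with squares for irradiated and circles for control. In endothelial-like cells the 4 values are 1.49, 1.96, 2.18 and 1.31, and the myofibre-rich barcodes sit between 0.0529 and 0.0921.

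Mural-like cells had the highest mitochondrially encoded share in all 4 libraries, 6.18%, 8.05%, 9.27% and 5.37% of UMIs. Schwann-like cells followed with 3.65% to 5.64%, satellite-like cells with 3.83% to 5.42%, B-like cells with 2.93% to 5.03% and endothelial-like cells with 2.98% to 4.09%, ranges that overlap. FAP-like cells lay at 2.63% to 3.64%. Neutrophil-like cells lay at 0.649% to 0.721% in the 3 libraries with at least 25 of them. Nuclear-encoded shares of mural-like cells were also above those of the other gated cell classes (3.15% to 3.98%, against 1.85% to 2.28% in endothelial-like and 1.56% to 1.85% in B-like cells). The number of mitochondrially encoded UMIs per nuclear-encoded UMI was highest in B-like cells in the first 3 libraries and in satellite-like cells in IR at 56 days. These levels are shares of all transcripts and not amounts per cell.

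Myofibre-rich barcodes had the reverse balance. Their nuclear-encoded members made up 10.1%, 11.4%, 11.2% and 11.4% of UMIs, more than in any gated cell class, and their mitochondrially encoded members 0.532%, 0.738%, 1.04% and 1.05%, which gave 0.0529 to 0.0921 mitochondrially encoded UMIs per nuclear-encoded UMI (0.0680 to 0.0992 without the deepest barcode of each library). Their Malat1 share was between 0.00139% and 0.0173%, against at least 1.13% in endothelial-like cells. Their median depth was 1118, 1519.5, 995 and 938 UMIs. Sorting kept single nucleated cells and not fibres, so what these barcodes are was not tested, and they carry no cell type name here. The share varied widely among these barcodes, with medians of 0.0910%, 0.204%, 0.860% and 0.332% per barcode. Without the deepest barcode of each library the sums were 0.870%, 0.762%, 1.18% and 1.13%, so the control at 24 hours was no longer the lowest.

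All 13 mitochondrially encoded genes were above 1 in IR over CON in endothelial-like cells at 24 hours, each with an interval above 1, where 18.1% of 10958 measured genes had such an interval. A gene counts as measured with at least 20 UMIs over both libraries. Here and below, shares over all measured genes are not matched to the members for UMI number, on which the width of an interval depends. At 56 days 12 of 13 were below 1 with an interval below 1, against 16.9% of 10170 genes. The exception was mt-Cytb, the only complex III gene of the mitochondrial DNA, at 1.01 (0.981 to 1.04) at 56 days and 1.07 (1.04 to 1.09) at 24 hours. Of the 13, 4 were at least 1.5-fold higher at 24 hours (16.2% of all measured genes were) and 4 at least 1.5-fold lower at 56 days (13.3% of all).

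The spread among these genes was wide, although most of them share a precursor. The gene mt-Nd6, coding for a core subunit of complex I, is the only member transcribed from the other strand (chrM:13552-14070, minus strand). It was counted with 75, 1044, 371 and 91 UMIs in endothelial-like cells, or 42.4, 188, 142 and 46.5 per 1000000 UMIs of the class (CPM). The middle 2 libraries were high and the outer 2 low, with no overlap between them. Its ratio of IR to CON was 4.44 (3.51 to 5.69) at 24 hours and 0.327 (0.257 to 0.412) at 56 days. In the 7 classes where it was measured it lay between 2.54 and 5.76 at 24 hours, and between 0.151 and 0.605 in 7 classes at 56 days, where the interval of mt-Nd6 was below 1 in 6 of them. In FAP-like cells the 24-hour ratio rested on 4 and 41 UMIs, and in satellite-like cells at 56 days on 47 and 2.

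Next came mt-Nd4l, a small core subunit of complex I, at 586, 1199, 1412 and 565 CPM in endothelial-like cells. It had the same 2 high and 2 low libraries, with ratios of 2.05 (1.92 to 2.19) and 0.400 (0.374 to 0.428). Across classes mt-Nd4l lay between 1.09 and 2.86 at 24 hours and between 0.213 and 0.533 at 56 days, where it was lower by the interval in 8 of 8 classes. It overlaps the start of mt-Nd4, with which it shares a messenger (chrM:9877-10173 and chrM:10167-11544). The UMIs assigned to the neighbour mt-Nd4 differed less, with ratios of 1.41 (1.36 to 1.47) and 0.706 (0.676 to 0.737). A like pair is mt-Atp8 and mt-Atp6, the mitochondrial subunits of ATP synthase, which also overlap (chrM:7766-7969 and chrM:7927-8607). The short mt-Atp8 had ratios of 1.53 (1.36 to 1.72) and 0.696 (0.624 to 0.776), and mt-Atp6 1.26 (1.24 to 1.28) and 0.705 (0.691 to 0.720). The chemistry tags the 3' end of an RNA, so counts of genes that share a messenger need not measure separate levels. From which RNAs the UMIs of the upstream genes came was not tested.

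The gene mt-Nd5, which codes for a proton-pumping subunit of complex I and overlaps mt-Nd6 on the opposite strand (chrM:11742-13565), was at 377, 571, 606 and 304 CPM, with ratios of 1.52 (1.39 to 1.65) and 0.501 (0.455 to 0.551). The other complex I genes were mt-Nd2 at 1.32 and 0.604, mt-Nd3 at 1.30 and 0.696, and mt-Nd1 at 1.06 and 0.715. The remaining genes code for core subunits of cytochrome c oxidase. The gene mt-Co1, which holds the oxygen-reducing centre, was at 1.23 and 0.768, mt-Co2, which takes electrons from cytochrome c, at 1.09 and 0.809, and mt-Co3 at 1.19 and 0.725. Summed by complex, the ratios in endothelial-like cells at 24 hours and 56 days were 1.36 and 0.615 for the 7 genes of complex I, 1.16 and 0.772 for the 3 of complex IV, 1.27 and 0.705 for the 2 of complex V and 1.07 and 1.01 for the gene of complex III. The order of complexes in mural-like cells was the same at both times: 1.55, 1.41, 1.21 and 1.08 at 24 hours and 0.485, 0.541, 0.607 and 0.724 at 56 days for complexes I, V, IV and III.

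**Figure D3:**
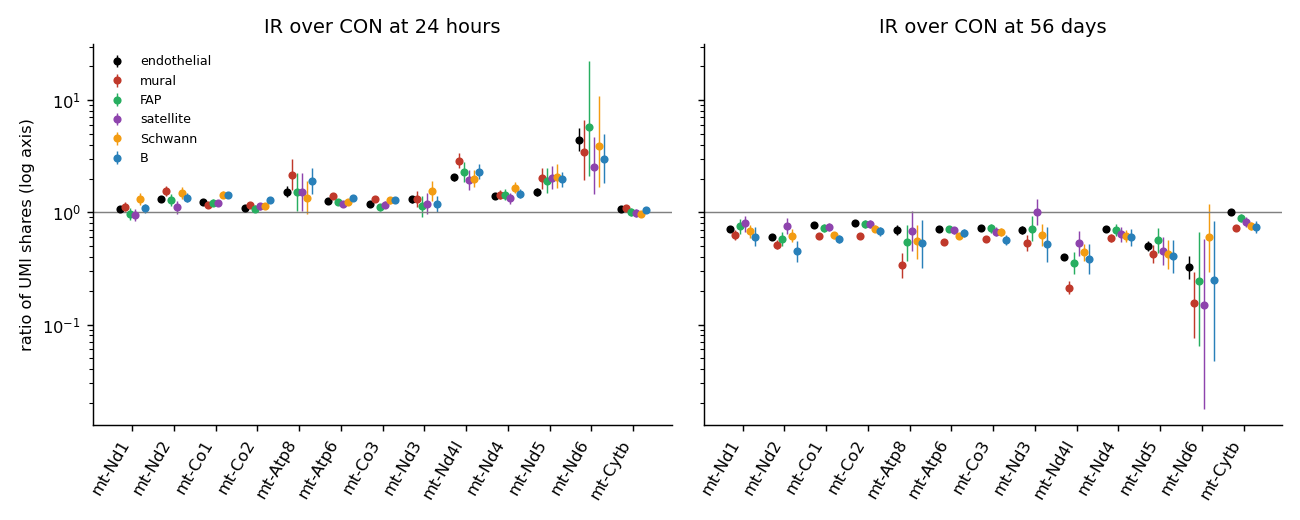
Ratio of IR to CON for each mitochondrially encoded gene at 24 hours (left) and 56 days (right) in 6 classes, on a log axis, in the order of the genes on the mitochondrial DNA. Bars are 95% intervals for counting error. In endothelial-like cells mt-Nd6 lies at 4.44 and 0.327, mt-Nd4l at 2.05 and 0.400, and mt-Cytb near 1 at both times.

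Most nuclear-encoded members moved by little, in the same direction as each other. In endothelial-like cells at 24 hours 88 of 90 were measured, and 70 of these were below 1 in IR over CON, against 43.0% of all measured genes. The other 18 were above 1, against 57.0% of all. The median log2 ratio was -0.10, against 0.06 for all genes. Only 2 were at least 1.5-fold higher (16.2% of all genes were) and 1 at least 1.5-fold lower (6.39% of all). By the interval 30 were lower (11.8% of all genes) and 4 higher (18.1% of all). At 56 days 81 of 85 measured members were above 1, against 51.1% of all genes, with a median log2 ratio of 0.31 against 0.02. Of these, 8 were at least 1.5-fold higher (12.8% of all) and 0 at least 1.5-fold lower (13.3% of all), and 58 had an interval above 1 (17.8% of all) and 0 below (16.9% of all).

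Of the 85 nuclear-encoded members measured at both times in endothelial-like cells, 68 were below 1 at 24 hours and above 1 at 56 days. Another 13 were above 1 at both, 3 were above and then below 1, and 1 was below 1 at both. These pairs of directions were not counted over all genes, so no background share stands beside them. At the single times 43.0% of all measured genes were below 1 at 24 hours and 51.1% above 1 at 56 days. The member below 1 at both times was Atp5j, coupling factor 6 of ATP synthase, at 892, 685, 758 and 752 CPM. It was the highest in CON at 24 hours, and the other 3 libraries lay close together. Its ratio was 0.768 (0.724 to 0.815) at 24 hours and 0.992 (0.927 to 1.06) at 56 days. The 4 members with an interval above 1 at 24 hours, Cox6b2, Cox6a1, Cox8a and Ndufb6, also had one above 1 at 56 days. Such an interval was found in 18.1% of all genes at 24 hours and 17.8% at 56 days, and the share with both was not counted.

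Complex by complex, the nuclear-encoded sums in endothelial-like cells at 24 hours were 0.920 (0.902 to 0.939) for complex I, 0.930 (0.899 to 0.964) for complex III, 0.987 (0.965 to 1.01) for complex IV and 0.877 (0.859 to 0.896) for complex V. The complex IV sum includes Cox6b2. At 56 days they were 1.22, 1.27, 1.28 and 1.21. The assembly factors of complex I stood at 1.01 (0.906 to 1.13) and 1.17 (1.04 to 1.32).

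Among complex I members, Ndufa12, an accessory subunit, was at 145, 105, 93.0 and 147 CPM in endothelial-like cells. It was high in CON at 24 hours and IR at 56 days and low in the other 2 libraries, with ratios of 0.727 (0.627 to 0.846) and 1.58 (1.33 to 1.89). Ndufb1-ps carries a pseudogene symbol for a small accessory subunit and is annotated as a long non-coding RNA of a bidirectional promoter. It was at 230, 216, 193 and 322 CPM, so that IR at 56 days stood above the other 3, with a ratio there of 1.67 (1.48 to 1.88). Ndufb6, an accessory subunit of the membrane arm, was at 123, 148, 94.1 and 142 CPM. Both irradiated libraries were above both controls, with ratios of 1.20 (1.04 to 1.40) and 1.51 (1.26 to 1.80).

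In complex V Atp5k, subunit e of ATP synthase, was at 214, 178, 190 and 294 CPM in endothelial-like cells, with a ratio of 1.54 (1.37 to 1.75) at 56 days. In complex IV Cox6a1 was at 290, 338, 250 and 345 CPM, with both irradiated libraries above both controls. The ratios of Cox6a1 were 1.17 (1.06 to 1.29) and 1.38 (1.23 to 1.53). Cox8a was at 672, 723, 544 and 725 CPM, with ratios of 1.08 (1.01 to 1.15) and 1.33 (1.24 to 1.44), and its irradiated libraries were also above both controls.

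**Figure D4:**
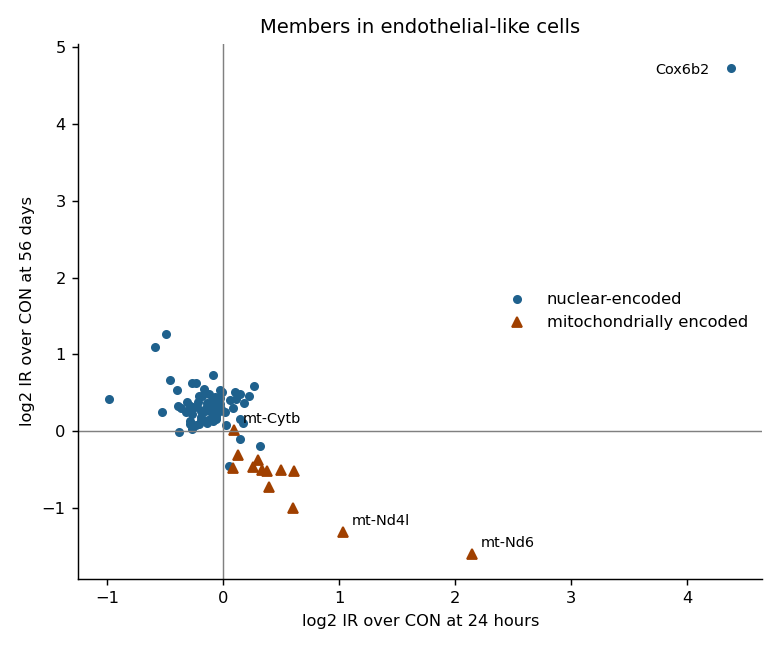
Log2 ratio of IR to CON in endothelial-like cells at 24 hours (horizontal) and 56 days (vertical), a point per member measured at both times. Mitochondrially encoded genes (triangles) lie to the lower right, most of the 85 nuclear-encoded members (circles) to the upper left of the origin, and Cox6b2 stands apart at the upper right.

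In the other cell classes most measured nuclear-encoded members lay on the same side as in endothelial-like cells, except in macrophage-like cells at 56 days. Myofibre-rich barcodes lay on the other side at 24 hours, and at 56 days they were near the share of all genes. At 24 hours the members below 1 were 73 of 83 measured in mural-like cells (51.4% of all genes were), 66 of 80 in FAP-like cells (44.3%), 60 of 77 in satellite-like cells (41.6%), 65 of 79 in Schwann-like cells (43.1%), 60 of 77 in B-like cells (40.5%), 34 of 53 in neutrophil-like cells (34.7%) and 40 of 76 in T- or NK-like cells (39.1%). In myofibre-rich barcodes 16 of 83 were (38.3%), and 24 of 82 without the deepest barcode of each library, a setting in which the share of all genes was not counted. At 56 days the members above 1 were 66 of 81 in mural-like cells (53.3% of all genes were), 64 of 80 in FAP-like cells (47.6%), 51 of 76 in satellite-like cells (46.6%), 55 of 77 in Schwann-like cells (49.5%) and 49 of 73 in B-like cells (50.0%). Macrophage-like cells had 36 of 77 (39.5%) and myofibre-rich barcodes 42 of 75 (53.1%). Without the deepest barcode of each library the myofibre-rich barcodes had 34 of 75, again with no share of all genes counted.

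The named rule gave up to 1 higher and 1 lower member in each of these classes. Cox6b2 was the higher one in satellite-like cells at 24 hours, and Ndufa4l2 the lower one in FAP-like cells, both described further on. At 24 hours Ndufv1, the NADH-binding subunit of complex I, was at 211 and 100 CPM in mural-like cells of CON and IR (ratio 0.475, 0.312 to 0.733). Uqcrc2, a core protein of complex III, was at 0.443 (0.250 to 0.766) in satellite-like cells. In Schwann-like cells Ndufs1 was at 2.81 (1.11 to 9.14) and Ndufv2 at 0.546 (0.388 to 0.773). Cox7a2 was at 0.730 (0.579 to 0.916) in B-like cells, Ndufa5 at 1.84 (1.24 to 2.70) in T- or NK-like cells and Cox7a2l at 0.592 (0.432 to 0.796) in the latter. In myofibre-rich barcodes Ndufb6 was at 1.72 (1.30 to 2.31) and Cox7a2l at 0.681 (0.508 to 0.914), and without the deepest barcode of each library at 1.64 (1.17 to 2.34) and 0.839 (0.582 to 1.22). In neutrophil-like cells, of which there were 29 and 33, Cox6b1 was at 2.08 (1.33 to 3.22), and Ndufv3 was counted with 36 and 1 UMIs (ratio 0.0959, 0.00236 to 0.569).

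At 56 days the named higher members were Ndufs7, an iron-sulfur core subunit, in mural-like cells (1.76, 1.30 to 2.40), Atp5l in FAP-like cells (1.59, 1.28 to 1.96), Atp5k in satellite-like cells (2.07, 1.32 to 3.19), Ndufs8, also an iron-sulfur core subunit, in Schwann-like cells (2.27, 1.20 to 4.46) and Ndufb1-ps in B-like cells (2.07, 1.46 to 2.93) and myofibre-rich barcodes (1.57, 1.23 to 2.01). In macrophage-like cells Ndufv3 was at 1.76 (1.13 to 2.78) and Ndufa11 at 0.526 (0.339 to 0.799). Ndufb3 was at 0.626 (0.389 to 0.989) in Schwann-like cells, and Ndufaf4, an assembly factor, at 0.323 (0.106 to 0.842) in myofibre-rich barcodes on 19 and 6 UMIs (0.403, 0.127 to 1.12, without the deepest barcodes).

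Cox6b2 was the member with the largest ratio at both times. It codes for an isoform of a small complex IV subunit that is best known from testis, and lies at chr7:4751792-4753094 on the minus strand. In endothelial-like cells 7, 489, 5 and 109 UMIs were counted, or 3.95, 88.1, 1.92 and 55.8 CPM. Both irradiated libraries were high and both controls low, with no overlap. The ratio of IR to CON was 22.3 (10.7 to 55.7) at 24 hours and 29.0 (12.1 to 91.2) at 56 days. The common isoform Cox6b1 was at 487, 459, 393 and 491 CPM, so Cox6b2 made up 0.806%, 16.1%, 0.486% and 10.2% of the UMIs of the pair.

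The UMIs were spread over many endothelial-like cells. A Cox6b2 UMI was found in 5 of 468 cells (1.07%, 0.348 to 2.48), 242 of 1523 (15.9%, 14.1 to 17.8), 2 of 779 (0.257%, 0.0311 to 0.924) and 42 of 476 (8.82%, 6.43 to 11.7). With cells thinned to 1000 UMIs, and 415, 1312, 682 and 423 cells deep enough, the shares were 0.723%, 6.63%, 0% and 4.26%. A count of 0 among 682 thinned cells allows a share of up to 0.440%. In a separate random thinning of cells to 1000 UMIs, the ratio of Cox6b2 was 8.62 at 24 hours and 15.3 at 56 days. That draw kept Cox6b2 UMIs in the control at 56 days, where the draw behind the shares kept none. The cell with the most held 16 of 489 UMIs in IR at 24 hours, 26 of 109 in IR at 56 days and 4 of 5 in CON at 56 days. Without the top cell of each library, a setting chosen after the values were seen, which leaves 1 control UMI at 56 days, the ratio was 30.2 at 24 hours and 111 at 56 days. B-like cells of similar depth (medians of 3242, 3312.5, 3168 and 3053 UMIs) had a Cox6b2 UMI in 1.06%, 2.94%, 0% and 0% of cells, where the zeros allow up to 5.08% and 6.98%.

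In satellite-like cells 1, 31, 6 and 2 Cox6b2 UMIs were counted, or 3.90, 95.1, 15.9 and 18.8 CPM, so that IR at 24 hours was at the level of endothelial-like cells and IR at 56 days near its control. They gave a ratio of 24.4 (4.06 to 993) at 24 hours that rests on 1 control UMI. The satellite-like cells with a UMI were 1 of 34, 18 of 72, 6 of 76 and 2 of 29. The FAP-like cells with a UMI were 3 of 39, 11 of 55, 2 of 88 and 6 of 36, with 21.0, 37.8, 4.85 and 38.9 CPM of Cox6b2 on 5, 16, 3 and 8 UMIs. The ratio in FAP-like cells was 1.80 (0.630 to 6.28) at 24 hours and 8.02 (1.92 to 46.9) at 56 days, the latter on fewer than 20 summed UMIs. In mural-like cells, at 22.2, 44.3, 22.3 and 33.4 CPM, the ratio at 24 hours was 2.00 (0.696 to 7.86), an interval that holds 1. Schwann-like cells held 0, 11, 3 and 3 Cox6b2 UMIs, too few at either time to count as measured. Myofibre-rich barcodes had 0 UMIs in each library, which allows up to 3.30%, 1.81%, 6.82% and 5.88% of barcodes with a UMI. Erythroid-like cells, numerous enough in the controls alone, held 26 UMIs in CON at 24 hours and 112 in CON at 56 days, and 28.0% and 34.8% of them had a UMI. Cox6b2 made up 31.3% and 20.6% of its pair there.

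The neighbouring genes were looked at because a 3' tag can run past a gene's end. Fam71e2, which ends 131 bases upstream of the Cox6b2 start on the same strand, had 0 UMIs in endothelial-like cells of each library. Kmt5c, a histone methyltransferase on the other strand, was at 11.9, 12.4, 7.30 and 13.8 CPM. Il11, farther upstream, was counted with 1, 6, 1 and 5 UMIs. The 3' tag of an RNA that ran from Fam71e2 into Cox6b2 would be counted as Cox6b2, so these counts cannot decide the question. From which RNAs the Cox6b2 UMIs came was not tested.

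Isoform pairs of complex IV set cell classes apart. Cox4i2, an isoform of subunit 4 known from lung and from oxygen-sensing vascular cells, made up 35.6%, 29.5%, 27.9% and 24.8% of the UMIs of Cox4i1 and Cox4i2 in mural-like cells. It was at most 0.753% in endothelial-like cells and at 0 UMIs in FAP-like and B-like cells. Ndufa4l2, a relative of Ndufa4 induced by hypoxia, made up 82.5%, 82.0%, 73.2% and 66.0% of its pair in mural-like cells, 12.6%, 3.33%, 18.3% and 11.0% in FAP-like cells and 0.978% to 2.48% in endothelial-like cells. In FAP-like cells its ratio at 24 hours was 0.211 (0.0676 to 0.567), on 16 and 6 UMIs. In endothelial-like cells it was the only member at least 1.5-fold lower at 24 hours, at 0.510 (0.317 to 0.834) on 30 and 48 UMIs.

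Within the mural-like class the shares differed between cells with smooth muscle markers and cells without. The split was made after the values were seen, and its markers belong to the gate. Cells with at most 1 of Myh11, Lmod1 and Cnn1 had Cox4i2 shares of 50.3%, 41.4%, 41.0% and 35.8% and Ndufa4l2 shares of 94.5%, 96.4%, 96.5% and 95.7%. Cells with at least 2 of these smooth muscle genes had Cox4i2 shares of 15.3%, 19.5%, 23.9% and 22.5% and Ndufa4l2 shares of 56.6%, 66.6%, 62.5% and 55.1%. Neither set of ranges overlapped the other. The makeup of the class also differed between libraries, with at least 2 of the markers in 11 of 45, 55 of 146, 36 of 58 and 37 of 69 cells, and its part in the shares of the whole class was not tested. The mitochondrially encoded share was higher in the cells with smooth muscle markers, at 7.61%, 9.25%, 10.6% and 5.74%, against 4.83%, 6.57%, 5.67% and 4.09%.

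The muscle isoforms marked the myofibre-rich barcodes. Cox6a2 made up 98.3%, 99.0%, 99.1% and 100% of its pair with Cox6a1 there, Cox8b 87.4%, 88.6%, 91.0% and 89.8% of its pair with Cox8a, and Cox7a1 50.6%, 52.9%, 49.0% and 52.5% of its pair with Cox7a2. The muscle isoform was thus nearly alone for the first 2 pairs, and about level with its partner for the other. A single barcode held 288 of the 639 Cox6a2 UMIs in the control at 24 hours, and without the deepest barcode the 3 shares there were 97.0%, 83.4% and 48.0%. In endothelial-like cells the shares were at most 2.45%, 1.62% and 1.50% in the same order, beside 499, 850, 322 and 295 CPM of myofibre marker genes. The Cox7a1 share of mural-like cells was above this level by the interval except in IR at 56 days (1.34 to 5.44). That of FAP-like cells was so in CON at 24 hours alone (2.92 to 12.7). The share in mural-like cells was 7.79%, 5.22%, 6.07% and 2.90%. They held 24, 7.19, 37.1 and 10.2 Cox7a1 UMIs for every 100 myofibre-marker UMIs, against 0.425 to 0.512 in myofibre-rich barcodes. Endothelial-like cells, at 1.70, 0.720, 0.835 and 2.26, were also above the myofibre-rich barcodes by this measure. In FAP-like cells the Cox7a1 share was 6.67%, 3.76%, 1.71% and 2.17%, on 8, 5, 3 and 2 UMIs, with 12.7, 3.47, 5.66 and 18.2 for every 100 marker UMIs.

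Cox6a2 was also counted in B-like cells, noticed after the values were seen. There were 18, 0, 8 and 4 UMIs in 7, 0, 3 and 4 cells, beside 121, 55, 32 and 19 UMIs of Cox6a1. None of these cells held a UMI of Siglech, a marker of plasmacytoid dendritic cells. Cox8b had 3, 1, 0 and 0 UMIs in the same cells' class and Cox7a1 0, 2, 1 and 1.

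**Figure D5:**
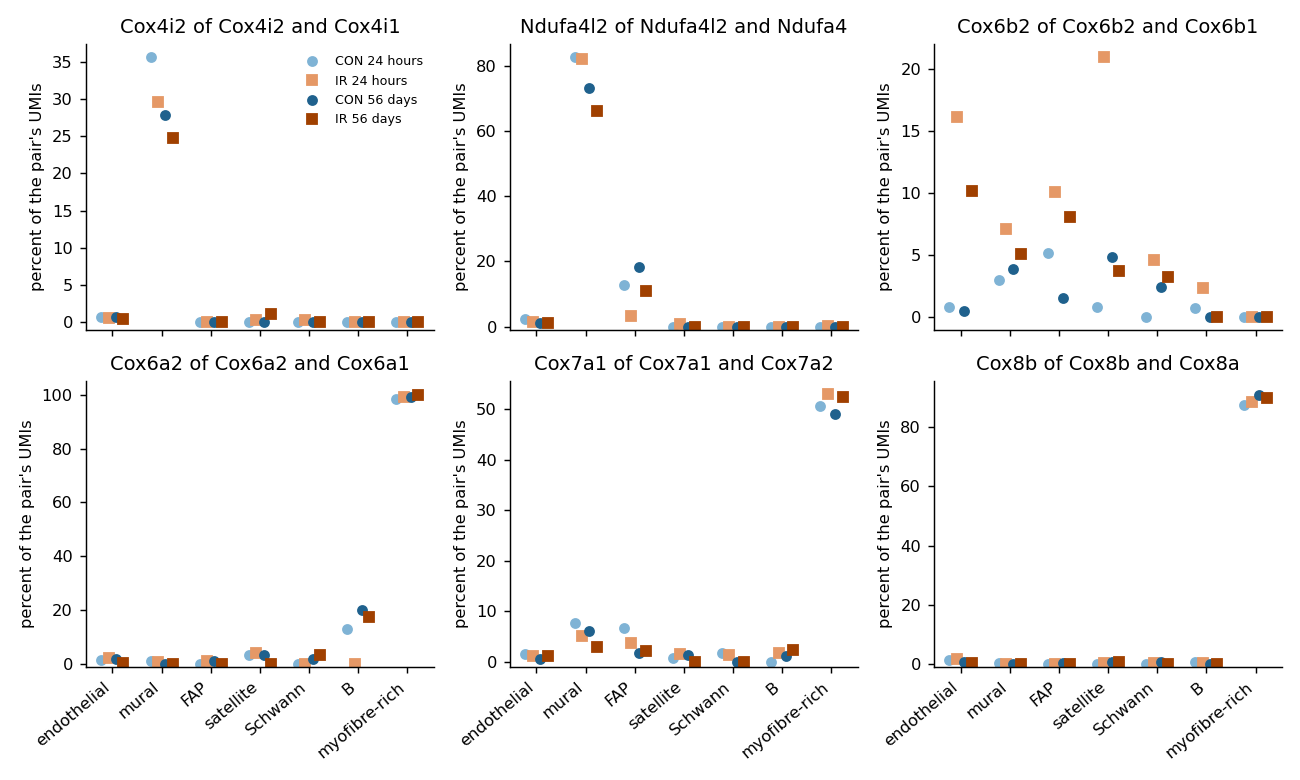
Share of the UMIs of each isoform pair held by the restricted isoform, by class and library, with squares for irradiated and circles for control. Cox4i2 and Ndufa4l2 are high in mural-like cells, and Cox6a2, Cox7a1 and Cox8b in myofibre-rich barcodes. Cox6b2 is high in irradiated endothelial-like cells (16.1% and 10.2%) and satellite-like cells of IR at 24 hours (20.9%). Its share was 5.15%, 10.1%, 1.55% and 8.08% in FAP-like cells, with overlapping intervals at 24 hours (1.69 to 11.6 and 5.86 to 15.8). In mural-like cells the Cox6b2 share was 2.99%, 7.11%, 3.87% and 5.11%. Erythroid-like cells are not drawn.

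Other mitochondrial gene lists were read in endothelial-like cells beside the same background (16.2% of all genes at least 1.5-fold higher and 6.39% lower at 24 hours, 12.8% and 13.3% at 56 days). The mitochondrial ribosome, whose proteins are all encoded in the nucleus, followed the nuclear-encoded members. Its 78 measured genes had median log2 ratios of -0.08 at 24 hours and 0.32 at 56 days, with 1 and 12 at least 1.5-fold higher and 1 and 0 lower. Mrpl52 (1.67, 1.44 to 1.95), Mrpl17 (1.60, 1.36 to 1.88) and Mrpl54 (1.70, 1.32 to 2.19) led at 56 days. Protein import, with 23 measured genes, had medians of -0.07 and 0.30, with 1 and 5 higher and 0 lower at either time. Timm22 stood at 2.14 (1.52 to 3.04) and Timm44, which links the import channel to its motor, at 2.04 (1.38 to 3.04) at 56 days.

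Cytochrome c oxidase assembly factors had medians of -0.07 and 0.33, with 2 of 18 higher and 1 lower at 24 hours and 2 of 17 higher and 0 lower at 56 days. Surf1, whose loss causes complex IV deficiency, stood at 0.593 (0.447 to 0.791) at 24 hours, and Pet100 at 1.60 (1.31 to 1.96) at 56 days. Complex II and cytochrome c, which the symbol rule leaves out, had medians of -0.14 and 0.46 over 6 genes, with 0 and 1 higher and 0 lower. Cycs, cytochrome c, stood at 1.52 (1.23 to 1.87) at 56 days. The assembly factors of complexes III and V had medians of -0.10 and -0.06, with 1 of 10 higher at 24 hours and 1 of 9 lower at 56 days.

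Genes that maintain and transcribe the mitochondrial DNA had medians of 0.31 at 24 hours and -0.13 at 56 days, with 2 of 13 higher and 1 lower, and then 0 of 11 higher and 1 lower. Genes that process and stabilise mitochondrial RNA had medians of 0.39 and -0.11, with 3 of 11 higher and 2 lower, and then 1 of 10 higher and 2 lower. Lrpprc, which stabilises mitochondrial messengers, was at 10.7 and 18.0 CPM at 24 hours (1.68, 1.02 to 2.90) and 22.3 and 13.8 CPM at 56 days (0.620, 0.377 to 0.995), so it was high in the same libraries as the mitochondrially encoded genes. Hsd17b10, a part of mitochondrial RNase P, was at 0.656 (0.526 to 0.822) at 24 hours.

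The regulators of nuclear oxidative phosphorylation genes had medians of 0.17 and -0.32, with 1 of 8 higher and 0 lower at 24 hours and 1 higher and 1 lower at 56 days. Esrra, the oestrogen-related receptor alpha, was at 2.05 (1.29 to 3.42) and 1.68 (1.02 to 2.78), above 1 at both times. The tricarboxylic acid cycle list had medians of 0.05 and 0.08, with 1 of 16 higher at each time and 0 and 1 lower. In the glycolysis list, with medians of -0.19 and 0.28, 2 and 2 of 17 were higher and 4 and 2 lower. Gapdh moved with the nuclear-encoded members, at 0.658 (0.581 to 0.746) and 2.83 (2.49 to 3.24). The mitochondrial stress list had medians of -0.23 and 0.26. Of this list 2 of 13 were higher at 24 hours and 4 of 13 at 56 days, with 0 lower at either time. Sesn2, a stress-induced gene that is also a p53 target, stood at 8.82 (5.77 to 14.2) and 9.22 (5.13 to 18.0).

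The p53 target list is given for comparison in the same cells. Like the other lists, it was chosen with earlier results of these data known. Of its 18 genes 17 were at least 1.5-fold higher at 24 hours and 14 of 17 at 56 days, with 0 lower and medians of 2.07 and 1.45. Cdkn1a, the cell cycle inhibitor, was at 7.63 (7.01 to 8.32) and 8.90 (8.03 to 9.88). This list was higher in IR at both times, as Cox6b2 was, while the summed mitochondrially encoded and nuclear-encoded members each changed direction. Whether any of these differences share a cause was not tested.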

How the data were processed

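The authors deposited UMI counts per gene and barcode, made with Cell Ranger 5.0.0 on mm10, per the submitters' processing notes. No header or label used here names further filters. From these counts, 6544 of 7086 barcodes passed limits of 200 genes, 500 UMIs and a mitochondrial share of 20%. A barcode entered a class with UMIs of at least 3 of its markers, where no other class had more than 0.5 times as many; barcodes with at least 10% of UMIs in myofibre markers were set apart. Mixed barcodes were left out, no doublet caller was run, and free RNA was not removed. Members and lists were chosen with earlier results of these data known. Groups follow the sample titles, with 1 library each, so no test was made. UMIs were summed per class and library. Ratios carry exact conditional binomial intervals, levels and shares exact binomial or Poisson ones, and ratios of mitochondrial to nuclear sums log-scale ones (95%, counting error only; PCR copies are collapsed by UMI). Genes with at least 20 summed UMIs were measured, the fold used was 1.5, and log2 ratios used a prior count of 0.5. Named genes are the 13 mitochondrial members, 6 isoform pairs, and those furthest from 1 by the interval bound nearest 1: up to 4 each way in endothelial-like cells, 1 each way elsewhere, and up to 3 per list. A gene that this rule names is not reported here. Gene positions are from GENCODE vM21. Intervals were checked on simulated counts drawn from the sampling model they assume, without variation between cells. That check covers the calculation and not the spread between cells or libraries. Python 3.11.15, numpy 2.4.6, scipy 1.17.1 and pandas 2.3.3 were used. Alternatives changed the gate, the mitochondrial limit, depth, weighting, the denominator, scaling and the floor.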

Additional observations from a re-analysis of the deposited data

Results flagged for a closer look

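In 6 classes and over all kept barcodes, the mitochondrially encoded UMIs per nuclear-encoded UMI were higher in IR at 24 hours and lower in IR at 56 days, with intervals on opposite sides of 1. The values at 24 hours and 56 days were 1.313 and 0.6001 in endothelial-like cells, 1.609 and 0.4786 in mural-like cells, 1.399 and 0.5815 in FAP-like cells, and 1.379 and 0.6532 in satellite-like cells. They were 1.519 and 0.5932 in Schwann-like cells, 1.466 and 0.532 in B-like cells, and 1.462 and 0.6491 over all kept barcodes. With 1 library per group the difference between the times was not tested. All values at a time come from the same pair of libraries, so the classes are not separate evidence.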

How the results depend on the processing

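With 1 library per group, no replicate could be left out. No paired analysis was possible because each group has 1 library and no test was made. In endothelial-like cells the mitochondrially encoded members stayed above 1 at 24 hours under the 10 alternatives run (1.15 to 1.23) and below 1 at 56 days (0.708 to 0.794), and the nuclear-encoded members stayed below 1 (0.878 to 0.934) and above 1 (1.20 to 1.24). Values that moved past the counting interval were as follows, with no test of the cause. For mitochondrially encoded members at 24 hours they were 1.19 with cells thinned to 1000 UMIs, 1.18 with cells weighted equally, 1.18 with a mitochondrial limit of 10%, 1.20 with no limit and 1.15 scaled by the median ratio. At 56 days they were 0.733 with a denominator of genes not mitochondrially encoded, 0.767 thinned, 0.794 weighted equally, 0.708 with at most 1 myofibre-marker UMI, 0.719 with no limit and 0.732 scaled by the median. Nuclear-encoded members moved to 0.878 at 24 hours scaled by the median and to 1.20 at 56 days thinned.

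The count of nuclear-encoded members at least 1.5-fold lower, 1 at 24 hours, was 0 thinned or weighted equally, 2 with at most 1 myofibre-marker UMI or a limit of 10%, and 3 scaled by the median. At 56 days it was 0, and 1 thinned, weighted equally, with a floor of 1 UMI or without the deepest barcode of each class and library. No class had a lower mitochondrial-to-nuclear ratio in IR at 24 hours, and 1 of 9 did when thinned, with no limit or without the deepest barcodes, an alternative added after seeing the data. The last is the myofibre-rich class, whose mitochondrially encoded ratio at 24 hours turned from 1.39 to 0.877. At 56 days the mitochondrial-to-nuclear ratio was lower by its point value in 8 of 8 classes. In the myofibre-rich class (0.996, 0.897 to 1.11) the interval held 1. With at most 1 myofibre-marker UMI, a setting that leaves fewer classes, the ratio was lower by its point value in 5 of 6. The ratio of mt-Cytb at 56 days fell under 1 with at most 1 myofibre-marker UMI (0.969), no limit (0.977) and median scaling (0.999). Cox6b2 ranged from 8.62 to 30.2 at 24 hours, lowest when thinned, and from 15.3 (thinned) to 111 at 56 days, highest without the top cell of each library. Depth limits what can be read for genes with few UMIs, such as Cox6b2 in the controls, and the smaller classes.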
